A study of Mus musculus with 28 samples.

Results

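The m6A peak lists of cerebrum and cerebellum from 7-day-old (P7) mice were compared, 4 libraries against 4. N6-methyladenosine (m6A) is a methyl mark on adenosines of messenger RNA. A complex around the methyltransferase Mettl3 writes it, mostly at the 5-letter motif DRACH (A, G or T, then A or G, then A and C, then A, C or T), of which GGAC is a frequent core. The mark gathers near stop codons and in long exons, and YTH proteins that bind it alter splicing, translation and decay of the transcript. In the week after birth granule cell progenitors of the cerebellum still divide, while in the cerebrum neurons have mostly been born and are forming synapses.

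The 8 immunoprecipitation (IP) libraries were 8 of the 14 IP libraries among 28 samples. All came from F1 hybrids of the strains PWK/PhJ (PWK) and C57BL/6J (C57), with no transgene or treatment. In F1i the mother was PWK and the father C57, and in F1r the mother was C57 and the father PWK. Each tissue had 1 library each of male F1i, male F1r, female F1i and female F1r, and values of the 4 libraries of a tissue are given below in this order. At birth (P0), 4 cerebrum libraries with the same labels and 2 cerebellum libraries, male F1i and male F1r, were used to look up the P7 regions. The labels name polyA RNA, while the study's methods name mRNA or ribo-depleted RNA as starting material. Which was used for each library was not settled here, and its part in the differences was not tested. The labels do not say that the libraries came from separate animals or litters. P-values therefore measure the spread between these libraries, which may be technical in part. By the study's sample sheet the cerebellum libraries formed one m6A-seq batch and the cerebrum libraries a second one. Tissue and batch therefore cannot be told apart in any comparison below.

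The 8 lists held 148995 of the 280967 peaks of the 14 libraries. Peaks that overlapped by at least 1 bp on the same strand were merged into 26996 regions, and a library had a region if at least 1 of its peaks lay in it. Of these regions 1914 were called in all 4 cerebrum and 0 cerebellum libraries (7.09%), 611 in all 4 cerebellum and 0 cerebrum libraries (2.26%) and 9953 in all 8. They are called cerebrum-only, cerebellum-only and shared regions here, and "only" refers to these 8 lists. A peak needs both a transcript and enrichment of its fragments in the IP, and a peak alone does not show methylation. In whole tissue fewer cells of a type and less RNA per cell cannot be told apart.

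The windows below stand for the patterns that follow. They are taken from the C57 reference (mm10) and written 5′ to 3′ on the strand of the transcript. Each is centered on the A of a motif near the strongest summit of a region, or on the summit where no motif lay near it. That A can lie up to 25 nt from the summit, so a window need not hold the summit. Capitals mark a DRACH motif within 25 nt of the summit, and a window with no capitals had none. Here and below, 3′UTR is short for a summit in a 3′UTR or at most 200 nt from a stop codon. A region so named can therefore lie in coding sequence. Dlx1as, Egr4 and Nlgn1 are shown as cerebrum-only regions with high fold enrichment.
Dlx1as, intron, chr2:71532207-71532263, minus strand: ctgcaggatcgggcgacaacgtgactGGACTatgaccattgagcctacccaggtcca
Egr4, coding sequence, chr6:85512287-85512343, minus strand: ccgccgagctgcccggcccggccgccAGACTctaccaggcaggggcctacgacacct
Nlgn1, intron, chr3:25852105-25852161, minus strand: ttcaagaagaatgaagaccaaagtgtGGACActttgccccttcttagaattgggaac

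Mtap and Ptpn11 are shown as cerebellum-only regions of 3′UTRs with a motif, and Gap43 and Ybx1 as cerebellum-only regions of 5′UTRs without one.
Mtap, 3′UTR, chr4:89180082-89180106, plus strand: aaattaaaatGGACTtagagaactt
Ptpn11, 3′UTR, chr5:121132032-121132056, minus strand: ttgtcacaatGAACTgtgttgggtt
Gap43, 5′UTR, chr16:42340517-42340541, minus strand: aggagagaaggcaggaagaaggcag
Ybx1, 5′UTR, chr4:119294409-119294433, minus strand: gcctagtcaccatcacacccgggag

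Kcnj4, Dlg3 and Adcy5 are among the shared regions with the largest differences in fold enrichment. Zbtb20 and Ppp2r5e are genes in which 2 shared regions changed relative to each other. In Zbtb20 the values of the downstream region overlapped between the tissues.
Kcnj4, 3′UTR, chr15:79484296-79484320, minus strand: ggggcttcaaAGACTgggagatccc
Dlg3, 3′UTR, chrX:100816641-100816665, plus strand: gaagagaggaGGACTgatggaaaga
Adcy5, 5′UTR, chr16:35155842-35155866, plus strand: ctcggacctgGGACTctggactcta
Zbtb20, upstream 3′UTR region, chr16:43619330-43619354, plus strand: ctggccacttGGACTtcacagtaag
Zbtb20, downstream 3′UTR region, chr16:43641179-43641203, plus strand: gtgcaaaccaGAACTctctcaacgt
Ppp2r5e, coding sequence, chr12:75515695-75515751, minus strand: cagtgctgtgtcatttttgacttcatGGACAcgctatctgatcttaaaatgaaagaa
Ppp2r5e, 3′UTR, chr12:75453522-75453546, minus strand: ttcaaagtgtGGACAgtagatggac

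The labels and the tissue markers were checked first, and 3 of the 8 libraries went against them in some way. Xist, the RNA that coats the inactive X chromosome of females, had 0, 0, 4 and 4 peaks in the cerebellum libraries and 1, 7, 6 and 3 in the cerebrum libraries. The highest Xist pileup over the background level of the library was 28, 7440, 5665 and 50.5 in cerebrum, so the library labelled male F1r carried a female-like level and the library labelled female F1r did not. The Y-linked gene Kdm5d had 2, 0, 0 and 1 peaks in the same libraries. Both cerebrum F1r libraries therefore go against their sex labels, which leaves the tissue comparison with 2 libraries of each cross and is met below by values without both.

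The cerebellum female F1i library stood apart from the other 3 of its tissue in the markers of the 2 tissues. Of 20 cerebellum identity genes, it had a peak in 14, against 18, 17 and 18 in the male F1i, male F1r and female F1r libraries. Fat2, a protocadherin of granule cells, had 15, 12, 1 and 17 peaks across the cerebellum libraries, and Zic4, a zinc finger factor of the cerebellum, had 6, 6, 1 and 6. Atoh1, the factor that specifies granule cell progenitors, had 3, 2, 0 and 2 peaks, and Skor2, a corepressor of Purkinje cells, had 3, 3, 0 and 3. The low count of all 4 genes lay in the female F1i library.

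Of 16 cerebrum identity genes the same library had a peak in 8, against 5 in each of the other 3. Dlx1, a homeobox factor of forebrain interneurons, had 0, 0, 3 and 0 peaks across the cerebellum libraries, and Emx2, a homeobox factor of the cortex, 0, 0, 2 and 0. The library lacked 440 regions that the other 3 cerebellum libraries had and cerebrum did not, against 34 to 170 for each of those. It alone among cerebellum libraries had 338 regions that all 4 cerebrum libraries had, against 126 to 216 for the others. Without it the cerebellum-only regions numbered 1051 and the cerebrum-only regions 2252. The cause was not tested, and values without it stand beside the results it touches.

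Cerebrum libraries had more peaks, with a larger share in introns and smaller shares with GGAC, in 5′UTRs and in 3′UTRs. Peaks per library were 18997, 17601, 17250 and 16965 in cerebellum and 19042, 20058, 19093 and 19989 in cerebrum. Every cerebrum list was longer than every cerebellum list, by 1842 peaks on average (19545.5 ± 553 against 17703 ± 901, SD, n = 4 each; two-sided exact permutation test over libraries, p = 0.0286, and 0.0429 after adjustment over 9 values). This p is the smallest that 4 against 4 libraries allow. Genes with a peak numbered 8776.5 ± 279 and 8494.75 ± 326, and this difference did not exceed the spread (exact permutation test, p = 0.257, adjusted p = 0.289, n = 4 each).

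The share of summits with GGAC within 25 nt was 52.1, 52.0, 54.2 and 54.1% in cerebellum and 45.4, 44.8, 45.9 and 45.9% in cerebrum. The tissues did not overlap, with a difference of -7.61 percentage points (exact permutation test, p = 0.0286, adjusted p = 0.0429, n = 4 each). In windows moved away from the summits GGAC was found in 16.3 to 17.8% of cases. With any DRACH motif in place of GGAC the tissues differed by 0.238 percentage points (exact permutation test, p = 0.743, n = 4 each). Any DRACH motif lay near the summit in 90.7% of all 26996 regions, so this share had little room to differ. It was not counted in windows moved away from the summits.

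Introns held 4.93, 5.09, 4.27 and 3.99% of cerebellum summits and 6.97, 7.95, 7.09 and 7.89% of cerebrum summits, a difference of 2.91 percentage points without overlap. The share in 5′UTRs was lower in cerebrum by 0.70 points (3.35 against 4.05%), and that in 3′UTRs, counted with summits up to 200 nt from a stop codon, by 2.9 points (45.2 against 48.1%). Each of these 3 shares had p = 0.0286 by the exact permutation test with n = 4 libraries per tissue, and adjusted p = 0.0429. The 3′UTR difference was no longer called with lists trimmed to equal sizes (-1.88 points, exact permutation p = 0.0857) or with summits in annotated exons alone (-1.06 points, exact permutation p = 0.429). The share in coding sequence was 32.8% in cerebrum and 33.1% in cerebellum (exact permutation test, p = 0.743, n = 4 each). Without the cerebellum female F1i library the difference was -7.23 points for GGAC, 2.81 points for introns and -2.04 points for 3′UTRs, each with p = 0.0286 of 3 against 4 libraries in the exact permutation test.

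**Figure D1:**
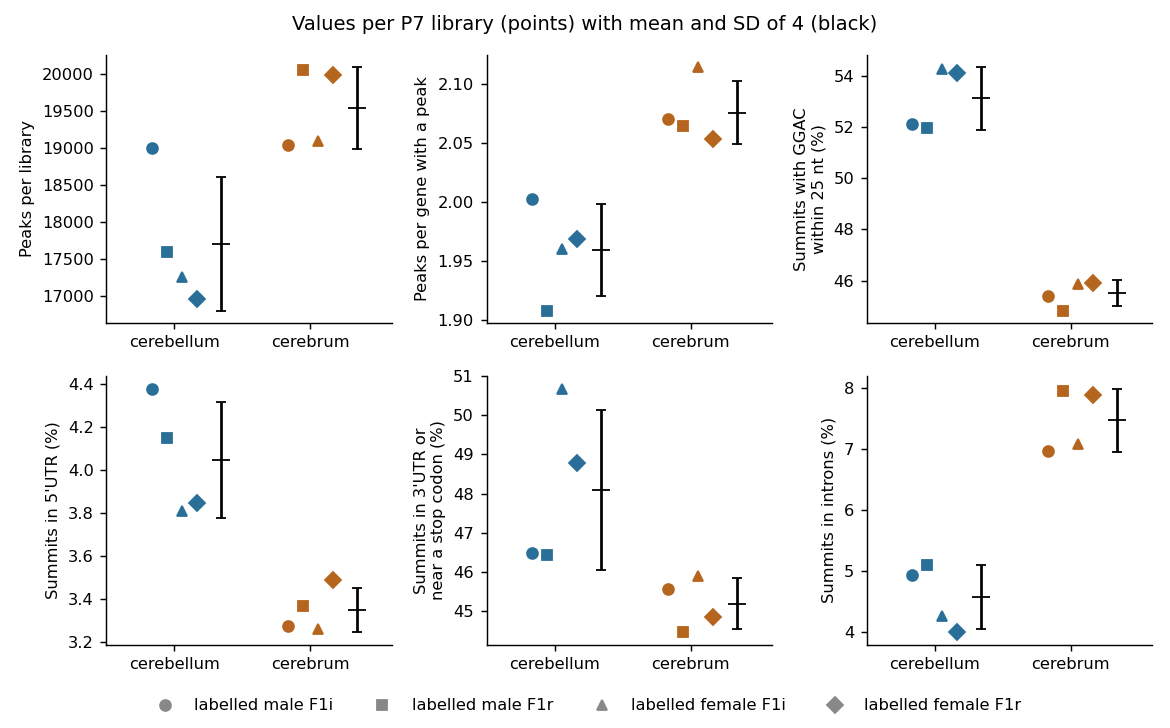
The 6 values tested without overlap in each P7 library, with cerebellum in blue and cerebrum in orange and marker shapes for the labelled sex and cross. Black bars give the mean and SD of 4 libraries, and axes do not start at 0. In all 6 panels the points of the tissues do not overlap, for GGAC between 52.0 and 54.2% in cerebellum and between 44.8 and 45.9% in cerebrum.

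The lists hold no read totals, and relative depth was recovered from the background values that the peak caller printed. It was 1.28, 1.22, 0.826 and 0.640 in cerebellum and 0.873, 1.18, 0.937 and 1.04 in cerebrum, with no difference beyond the spread (exact permutation test, p = 0.886, n = 4 each). The median local background of a peak did differ, at 4.05, 4.06, 2.42 and 2.04 reads in cerebellum against 1.48, 1.85, 1.56 and 1.6 in cerebrum. The median fold enrichment was 8.03, 8.14, 9.28 and 8.87 in cerebellum against 11.3, 11.2, 10.8 and 11.1 in cerebrum. Background and fold enrichment thus moved with tissue, and their part in the differences of the lists was not tested.

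Cerebrum-only and cerebellum-only regions differed from shared regions and from each other in place and sequence. Of cerebrum-only regions 33.9% had their strongest summit in coding sequence, 27.8% at the 3′ end (a 3′UTR, or at most 200 nt from a stop codon), 17.3% in an intron and 3.92% in a 5′UTR. Of cerebellum-only regions these shares were 28.6, 34.7, 7.86 and 11.9%, and of shared regions 33.2, 54.9, 2.44 and 2.83%. Over all 26996 regions they were 29.5, 40.6, 9.86 and 4.68%. Both kinds thus had a smaller share at the 3′ end than shared regions and than all regions. The intron share of cerebrum-only and the 5′UTR share of cerebellum-only regions lay above the shares over all regions. The intron share of cerebellum-only regions lay below that over all regions, and shared regions had the lowest.

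GGAC lay within 25 nt of the summit in 35.1% of cerebrum-only, 50.7% of cerebellum-only and 54.3% of shared regions, against 46.9% of all 26996 regions. Within 3′UTRs the contrast was wider, with 28.8% of 532 cerebrum-only against 60.4% of 212 cerebellum-only regions. In coding sequence the shares were 37.6 and 37.7%, against 39.7 and 43.1% without the cerebellum female F1i library and 36.4 and 43.2% without both cerebrum F1r libraries. The core AAAC went the other way and lay near 32.0% of cerebrum-only and 14.2% of cerebellum-only summits, against 23.6% of all regions. Without the cerebellum female F1i library GGAC was near 36.7% of 2252 cerebrum-only and 53.5% of 1051 cerebellum-only summits. Without both cerebrum F1r libraries it was near 34.4% of 2321 and 54.04% of 829.

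A part of the cerebellum-only regions had no motif near the summit. Any DRACH motif was present in 78.2% of them, against 91.1% of cerebrum-only and 95.6% of shared regions. By place it was 92.5% of the cerebellum-only regions in 3′UTRs, 66.9% in coding sequence, 66.7% in introns and 57.5% in 5′UTRs. The 73 cerebellum-only regions of 5′UTRs were also narrow, with a median width of 112 nt against 170 nt for all cerebellum-only, 203 nt for cerebrum-only and 436 nt for shared regions, and their median fold enrichment was 4.76.

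Both kinds of region were weaker than shared regions, which had to be called in all 8 lists. The median of the mean fold enrichment was 8.07 in cerebrum-only, 6.53 in cerebellum-only and 16.5 in shared regions, against 7.89 over all regions. The median of the mean percentile of −log10 q within a list was 33.4, 39.6 and 68.1, against 34.3 over all regions. This percentile reached 75 in 68 cerebrum-only (3.55%), 53 cerebellum-only (8.67%) and 3853 shared regions (38.7%), against 15.1% of all regions. At the edge of the rule, 817 further regions were called in all 4 cerebrum libraries and 1 cerebellum library, and 887 in 3 cerebrum and 0 cerebellum libraries. For cerebellum the like numbers were 206 regions with 1 cerebrum library and 719 called in 3 cerebellum libraries only.

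**Figure D2:**
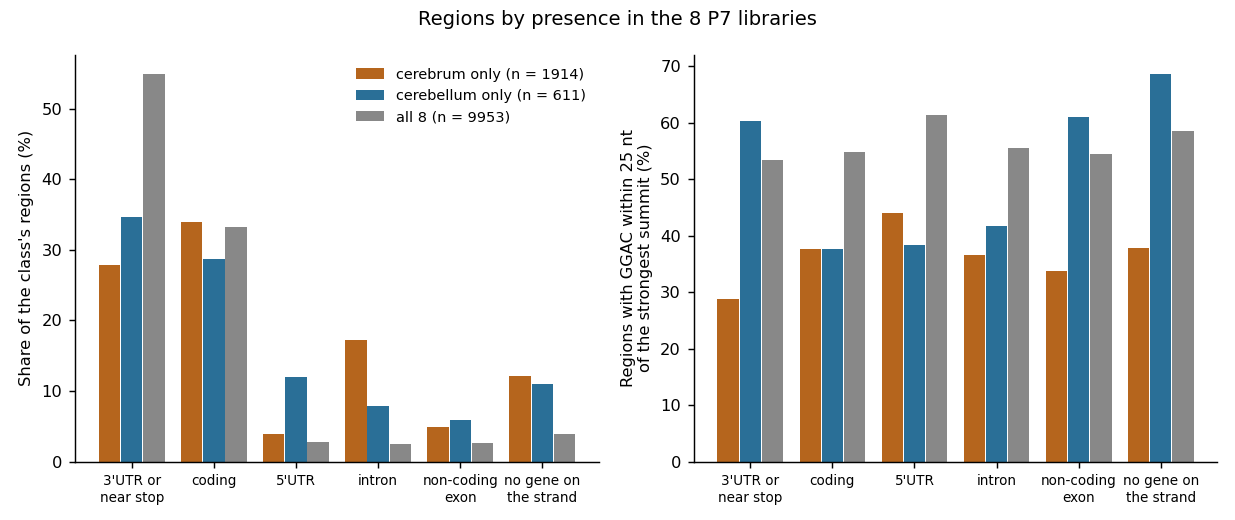
Left, the share of cerebrum-only (n = 1914, orange), cerebellum-only (n = 611, blue) and shared regions (n = 9953, grey) by the part of the gene under the strongest summit. Right, the share of the regions of each part with GGAC within 25 nt of that summit, which in 3′UTRs was 28.8% for cerebrum-only and 60.4% for cerebellum-only regions.

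The P0 libraries, which had no part in choosing the regions, each held a larger share of the regions of their own tissue than of the other tissue. Cerebrum-only regions were overlapped by a peak in 92.6, 88.6, 93.2 and 93.8% of cases in the 4 P0 cerebrum libraries and in 17.1 and 24.2% in the 2 P0 cerebellum libraries. Cerebellum-only regions were found in 17.5, 15.4, 21.9 and 20.1% of cases in P0 cerebrum and in 72.5 and 75.3% in P0 cerebellum. Shared regions reached 97.7 to 99.3% in every P0 library. These shares are a description, since 4 against 2 libraries cannot reach an exact p of 0.05, and the P0 libraries share the batch of their tissue.

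All 4 P0 cerebrum and 0 P0 cerebellum libraries had 1102 cerebrum-only regions (57.6%), and both P0 cerebellum and 0 P0 cerebrum libraries had 239 cerebellum-only regions (39.1%). No P0 library had 56 cerebrum-only (2.93%) and 84 cerebellum-only regions (13.7%). These shares are not alike in chance to be seen, since cerebrum had 4 P0 libraries labelled male and female and cerebellum 2 labelled male. Without the cerebellum female F1i library, P0 cerebellum held 51.6 and 59.9% of the 1051 cerebellum-only regions. The 440 regions missing from that library alone were found in 22.5 and 38.6% of cases in P0 cerebellum and in 18.6 to 24.1% in P0 cerebrum.

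**Figure D3:**
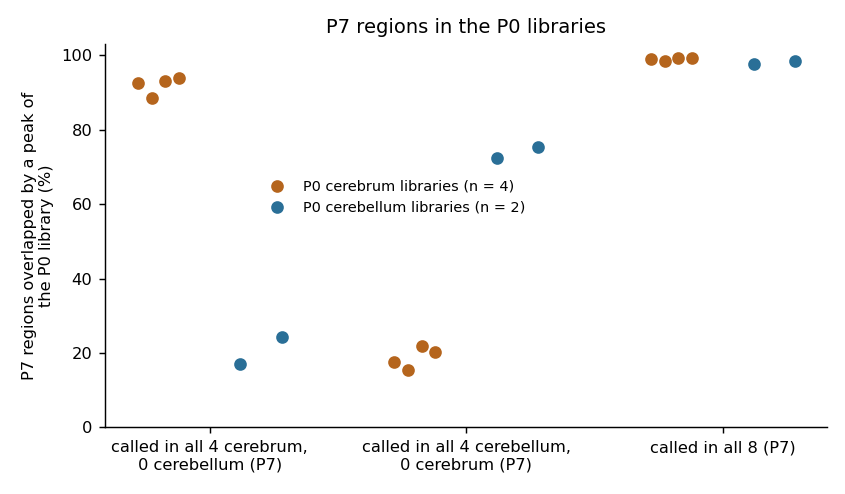
Share of P7 regions overlapped by a peak of each P0 library, for cerebrum-only, cerebellum-only and shared regions, with P0 cerebrum libraries in orange (n = 4) and P0 cerebellum libraries in blue (n = 2). P0 libraries of the same tissue held 88.6 to 93.8% of cerebrum-only and 72.5 and 75.3% of cerebellum-only regions, and P0 libraries of the other tissue 15.4 to 24.2%.

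A region can be seen in one tissue because the gene has no peak at all in the other or because a single stretch of a transcript with other peaks differs. The gene of the region had 0 peaks in the other tissue for 429 cerebrum-only (22.4%) and 243 cerebellum-only regions (39.8%). It held a shared region elsewhere for 919 (48.0%) and 217 (35.5%), so that the gene had peaks in both tissues. Counted by gene, 368 of 10895 genes with a peak were called in all 4 cerebrum and 0 cerebellum libraries (3.38%) and 236 the other way (2.17%). Of these 290 (78.8%) and 211 (89.4%) were protein coding, with 21 and 2 long intergenic RNA genes and 18 and 8 antisense genes. The same pattern held in all P0 libraries for 207 of the 368 and 87 of the 236 genes.

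Several genes held more than 1 cerebrum-only region. These regions lay in 1265 genes, of which 252 held at least 2 and 23 at least 5. The giant cadherins Dchs2 and Fat4, which set planar polarity, held 10 each, 9 of them in coding sequence. The presynaptic scaffold Pclo and the imprinted gene Zdbf2 held 9 coding regions each. In Kcnip4, a potassium channel partner, all 8 lay in introns, as did the 7 of Nkain2 and the 6 each of Nrg1, Fgf14, Lrrtm4 and Ptprd. Cerebellum-only regions lay in 500 genes, of which 39 held at least 2 and none over 4. Ptms, the acidic chromatin protein parathymosin, held 4, and Acss2, Anp32b, En2 and Lhx1 were among those with 3.

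The cerebrum-only regions with the highest −log10 q percentile in genes with 0 peaks in cerebellum lay in protein-coding, antisense and small nuclear RNA genes. Egr4, an activity-induced zinc finger factor, had fold enrichments of 51.8, 48.0, 38.5 and 55.0 at chr6:85512077-85512579 (48.3 ± 7.13, SD, n = 4), around the window shown above. Fezf2, which specifies deep-layer projection neurons, had 33.2, 41.3, 32.6 and 38.8 at chr14:12342231-12342719. Both were called in the 4 P0 cerebrum libraries, and Fezf2 was also called in 1 of the 2 P0 cerebellum libraries.

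An intron of Dlx1as, the antisense gene at the Dlx1 locus, had 51.4, 46.1, 50.2 and 60.7. Further regions named by the same rule lay in the small nuclear RNA genes Gm23849, Gm23444 and Gm25405, with mean folds of 2.39, 3.69 and 30.4. These genes belong to families of near-identical copies, so the place of their reads is uncertain.

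Cerebrum-only regions in genes with a shared region elsewhere lay in cell adhesion and synaptic genes, among others. Fat3, a giant cadherin, had 38.3, 40.3, 40.7 and 45.2 at chr9:16374995-16376838. Nlgn1, the postsynaptic adhesion protein neuroligin 1, had 44.5, 32.6, 44.4 and 51.9 in an intron at chr3:25851985-25852462. Nlgn1 held 3 shared regions elsewhere in the same gene. The others were Fat4 with a mean fold of 33.0, Apc, the scaffold that degrades beta-catenin, with 15.6, the dendritic protein gene Ddn with 13.0 and Rtn4, which encodes the myelin inhibitor Nogo, with 9.72.

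The 7 cerebellum-only regions with the highest −log10 q percentile in genes with 0 peaks in cerebrum had mean folds between 4.12 and 7.81. The intron region of Ptms had 6.55, 7, 7 and 6.98, and the coding region of Ptma, the chromatin protein prothymosin, 5.87, 8.05, 7.37 and 7.69. In 5′UTRs, Gap43, a growth cone protein, had 5.50, 6.03, 7.01 and 5.93, Ybx1, an mRNA-binding protein, had 6.09, 6.76, 6.26 and 7.20, and Atp5g3 and Ptn had means of 7.05 and 4.12. Each was called in both P0 cerebellum libraries and in 0 P0 cerebrum libraries. No DRACH motif lay within 25 nt of the summit in Ptma, Gap43, Ybx1, Atp5g3 and Ptn. The seventh, in the miRNA gene Gm23634, had 3.84, 7.23, 12.9 and 7.29.

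In genes with a shared region elsewhere, cerebellum-only regions of 3 3′UTRs had higher folds. Mtap, an enzyme of methionine salvage, had 23.9, 24.5, 34.7 and 30.8 at chr4:89180039-89180182, and Ptpn11, the phosphatase Shp2, had 12.6, 11.2, 16.9 and 16.0 at chr5:121131958-121132176. Irx2, a homeobox factor, had 16.8, 15.7, 22.7 and 24.2, and was also called in 2 P0 cerebrum libraries. The remaining 4, in Leng8, H1f0, Meg3 and Basp1, had mean folds of 7.52, 6.16, 3.29 and 2.87.

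At P7 the regions of one tissue in the identity lists lay in the tissue of the list. These lists were chosen with earlier results of these data known. All 16 cerebrum identity genes had a peak, and 9 of them held 12 cerebrum-only and 0 cerebellum-only regions. Fezf2, Emx1 and Rorb were among those without a peak in every cerebellum library. Emx1, a homeobox factor of the dorsal telencephalon, had 18.4, 30.2, 16.2 and 16.7 in its 3′UTR, and Tbr1, a factor of deep-layer neurons, 15.2, 13.8, 11 and 11.7 in its coding sequence. Of 20 cerebellum identity genes 18 had a peak, and 7 held 14 cerebellum-only and 0 cerebrum-only regions, while Gabra6 and Ptf1a had no peak. Each cerebrum library still had a peak in 8 or 9 of these 20 genes, and 7 of them had a peak in all 8 libraries. Of the 16 cerebrum identity genes 3 had a peak in all 8. Of all genes with a peak, 11.6% held a cerebrum-only and 4.59% a cerebellum-only region, and no test set the counts of the lists against these shares. At P0, cerebellum-only regions of Lhx1, Lhx5 and Barhl2 were also called in cerebrum, in 4 libraries for at least 1 region of each gene. Cerebrum-only regions of Bcl11b, Fezf2, Lhx2 and Lhx6 were called in 1 P0 cerebellum library each. En2, the homeobox factor engrailed 2 of the midbrain and cerebellum, had 21.2, 24.4, 13.7 and 22.0 in its 5′UTR, and Pax2, a factor of inhibitory interneuron progenitors, had 49.2, 42.9, 13.9 and 42.6 in its 3′UTR. Without the cerebellum female F1i library, the lowest of the 4 in both, the counts were 20 and 37 regions.

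Markers of cell types that either tissue could hold gave few regions of one tissue, in lists too short to compare with all genes. The 12 oligodendrocyte lineage markers held none of either kind. The 10 astrocyte and Bergmann glia markers held 1 cerebrum-only region (Slc1a2) and 1 cerebellum-only region (Aqp4). The 8 microglia markers held 2 cerebellum-only regions, both in C1qa, and the 10 vascular and choroid plexus markers 1 cerebrum-only region, in Flt1. Of all genes with a peak, 11.6% held a cerebrum-only and 4.59% a cerebellum-only region. The part of these cell types in the differences was not tested.

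Regions of one tissue in glutamate receptor and synapse genes were nearly all cerebrum-only, although most of these genes had peaks in all 8 libraries. The 25 glutamate receptor genes held 18 cerebrum-only regions in 9 genes and 0 cerebellum-only regions, and 21 of the genes had a peak in all 8 libraries. Grin2a, a subunit of the NMDA receptor, had 15.5, 18.9, 14.3 and 16.5 in a coding region and 20.2, 17.0, 18.6 and 13.7 in another, and Grin2b, its partner, 14.8, 24.5, 17.3 and 23.1 in an intron. Grm5, a metabotropic receptor, had 13.5, 14.3, 11.5 and 12.8 in its 5′UTR. The 27 genes of postsynaptic scaffolds and synaptic adhesion held 26 cerebrum-only regions in 11 genes and 1 cerebellum-only region, in Nlgn2, and 23 of them had a peak in all 8 libraries. Of the 26, 6 lay in introns of Lrrtm4, and Dlg1 and Dlg2, which anchor receptors at the synapse, had no peak in cerebellum. These counts stand against 1914 cerebrum-only and 611 cerebellum-only regions in all, and 11.6% of all genes with a peak held a cerebrum-only region. Many of the regions in both lists lay in introns, as in Gria3, Grm7, Grm8, Lrrtm4 and Dlgap2. Introns held 17.3% of all cerebrum-only regions, and the part of this general excess in the lists was not tested.

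Counts in the other families were smaller. The 15 GABA receptor genes held 7 cerebrum-only regions in 5 genes, and Gabra2 and Gabrg3 had no peak in cerebellum. The 20 Eph receptor and ephrin genes, which guide axons by contact, held 11 cerebrum-only regions in 7 genes, of which 4 lay in coding sequence of Epha6. The 29 semaphorin, plexin and neuropilin genes held 6, the 26 Wnt pathway genes 6 (in 3 genes, Fzd3, Apc and Lrp6) and the 15 classical cadherins 2 (in 2 genes), with 0 cerebellum-only regions in each of these families. For Wnt genes and cadherins the count of genes is near the share over all genes. The 17 Hedgehog pathway genes, which drive granule cell progenitor division, held 0 regions of either kind, and 4 cerebellum-only regions without the cerebellum female F1i library.

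Of 19 activity-induced genes 5 held 7 cerebrum-only regions and Fos 1 cerebellum-only region. Egr3 had 28.2, 37.1, 22.8 and 28.9 in its coding sequence and, with Egr4 and Nr4a3, no peak in cerebellum. The 15 genes of m6A writers, erasers and readers held 2 cerebrum-only regions, in Rbm15 and Rbm15b, and 3 cerebellum-only regions, 1 in Zc3h13 and 2 in Ythdc1. Of all genes with a peak, 11.6% held a cerebrum-only and 4.59% a cerebellum-only region, and no test set these counts against those shares. Rbm15 and Rbm15b are adaptors that bring the writer complex to RNA, Zc3h13 is another subunit of the complex and Ythdc1 is the nuclear reader.

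Shared regions were compared by the fold enrichment of their strongest peak, on the log2 scale, centered on the median of each library and tested with limma. Of 9953 regions 2691 were higher in cerebrum (27.0%) and 2288 in cerebellum (23.0%) at an adjusted p of at most 0.05, with 732 and 775 of these over 2-fold. Without centering the split was 6339 against 520, since the median region was higher in cerebrum by 0.73 on the log2 scale (0.06 after centering). Changes below are therefore relative to the median region. IP pileup, the number of IP fragments over the summit, had the same sign for 4586 (92.1%) of the 4979 called regions.

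Kcnj4, an inward rectifier potassium channel of forebrain neurons, differed most toward cerebrum. Its 3′UTR region at chr15:79484059-79485770 had folds of 9.94, 10.2, 23.8 and 8.68 in cerebellum and 186, 238, 134 and 213 in cerebrum. The tissues were far apart, by 3.30 on the centered log2 scale (SE 0.24, adjusted p = 5.19e-08), and by 3.60 without the cerebellum female F1i library, the highest of its tissue. Atxn1, the ataxin 1 gene, had 6.46, 7.12, 12.7 and 7.34 in cerebellum and 104, 110, 70.2 and 131 in cerebrum in a coding region (2.98, SE 0.21, adjusted p = 3.78e-08).

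Ntrk3, the receptor of neurotrophin 3, had 8.45, 9.16, 9.14 and 15.4 in cerebellum and 117, 119, 102 and 118 in cerebrum in a 3′UTR region (2.80, SE 0.20). Elk4, a factor of the serum response, differed by 2.70 and Dio2, which activates thyroid hormone, by 2.62. Rbm15 had 9.61, 13.2, 7.92 and 13.4 in cerebellum and 113, 101, 94.2 and 82.9 in cerebrum in its coding sequence (2.50, SE 0.21, adjusted p = 2.41e-07). In all 6 the libraries of the tissues did not overlap.

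Toward cerebellum, the largest change was in Rps4l, a transcribed pseudogene of a ribosomal protein, with 43.8, 57.4, 73.0 and 51.3 in cerebellum and 7.54, 10.0, 6.21 and 9.43 in cerebrum (-3.43, SE 0.18, adjusted p = 3.08e-09). Reads of such a copy can be split with its parent gene, so its place is uncertain. Dlg3, a synaptic scaffold of the X chromosome, had 36.6, 29.7, 38.5 and 36.3 in cerebellum and 7.05, 8.02, 9.65 and 7.36 in cerebrum in its 3′UTR (-2.81, SE 0.18, adjusted p = 1.40e-08). Adcy5, an adenylyl cyclase, had 24.1, 17.8, 22.9 and 25.3 in cerebellum and 4.73, 6.07, 5.16 and 6.54 in cerebrum in its 5′UTR (-2.67, SE 0.17, adjusted p = 1.40e-08).

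The zinc finger gene Zfp970 (-2.70), Evi2a (-2.62) and Abcd4, a transporter of vitamin B12 (-2.62), followed, each in a 3′UTR. The libraries of the tissues did not overlap in any of the 6 regions, and the sign of all 12 was the same without centering, with quantile normalization and in pileup. The 6 toward cerebellum all had GGAC near the summit, and of the 6 toward cerebrum Atxn1 had it.

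**Figure D4:**
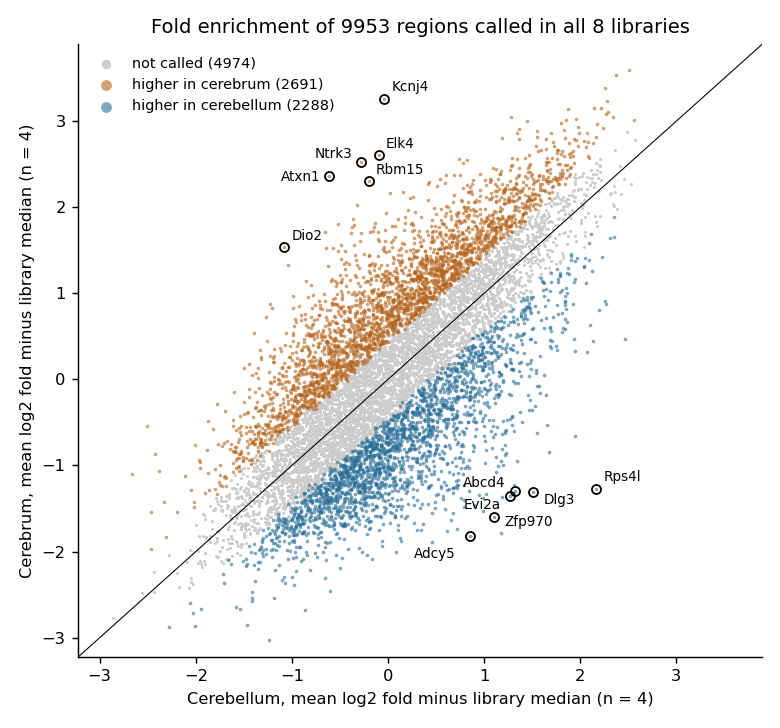
Mean log2 fold enrichment minus the library median in cerebellum (x axis) and cerebrum (y axis), n = 4 libraries each, for the 9953 shared regions. Orange points were higher in cerebrum (2691), blue points higher in cerebellum (2288) and grey points not called, and the 6 regions named in each direction are circled, Kcnj4 farthest above the line of equal values and Rps4l farthest below.

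The motif followed the direction of the difference across all shared regions. GGAC lay near 45.3% of the summits higher in cerebrum, 66.5% of those higher in cerebellum and 53.6% of those not called. AAAC lay near 29.5, 20 and 21.5%, and any DRACH motif near 96.6, 95.8 and 95.0%. In 3′UTRs GGAC was near 42.2% of the regions higher in cerebrum and 66.0% of those higher in cerebellum, and in coding sequence near 49.2 and 67.1%.

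The glutamate receptors and the synaptic scaffolds leaned to cerebrum among shared regions as well. Of 41 regions in glutamate receptor genes 21 were higher in cerebrum and 7 in cerebellum, with a median difference of 0.54 against 0.06 over all shared regions. Grid1, an orphan receptor of synapse formation, had 8.93, 7.03, 20.4 and 16.7 in cerebellum and 71.4, 60, 62.8 and 68.5 in cerebrum (1.77, SE 0.25, adjusted p = 3.17e-05). Of 53 regions in postsynaptic genes 24 were higher in cerebrum and 6 in cerebellum (median 0.35). Dlgap2 had 9.54, 5.65, 11.1 and 8.02 in cerebellum and 52.8, 61.8, 44.8 and 70.5 in cerebrum (2.1, SE 0.20, adjusted p = 5.62e-07), the opposite of Dlg3 above.

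Hedgehog pathway genes leaned the other way, with 3 of 15 regions higher in cerebrum and 9 in cerebellum and a median difference of -0.73. Without centering the counts were 4 and 4 and the median -0.06, and by pileup 1 and 10. Gli2, a factor at the end of the pathway, had 20.6, 25.6, 14 and 23 in cerebellum and 7.15, 13.0, 6.95 and 7.73 in cerebrum in its 3′UTR (-1.94, SE 0.23, adjusted p = 4.66e-06). Gli1, a factor and target of the pathway, had 28.8, 26.4, 11.6 and 21.7 in cerebellum and 9.53, 14.1, 8.10 and 13.3 in cerebrum (-1.60, SE 0.26, adjusted p = 9.00e-05). In Gli1 the female F1i library lay among the cerebrum values before centering. Gli3, mainly a repressor, had 2 coding regions that went opposite ways (0.99, SE 0.19, and -1.46, SE 0.22), and the receptor gene Ptch1 had a coding region higher in cerebrum (0.93, SE 0.20) whose pileup difference was -0.01.

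Of 21 shared regions in genes of the m6A machinery 7 were higher in cerebrum and 4 in cerebellum, a share of calls close to the 27.0 and 23.0% over all shared regions. Besides Rbm15, Zc3h13 had 24.0, 26.6, 30.7 and 32.6 in cerebellum and 6.45, 10.8, 12 and 11.3 in cerebrum in a coding region (-2.19, SE 0.21, adjusted p = 6.51e-07). A 3′UTR region of Zc3h13 was higher in cerebrum (0.60, SE 0.18). The demethylase Fto was higher in cerebrum in coding sequence (1.23, SE 0.20), the reader Ythdf2 in its 3′UTR (1.06, SE 0.18), and Ythdc1 lower in an intron region (-1.35, SE 0.19).

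Activity-induced genes had 6 of 14 regions higher in cerebrum and 3 in cerebellum (median 0.37). Fosl2 had 19.0, 19.2, 17.0 and 17.0 in cerebellum and 96.8, 110, 85.1 and 104 in cerebrum (1.78, SE 0.16, adjusted p = 5.52e-07), while Ier2 was lower in cerebrum (-0.89, SE 0.20). Among guidance genes 11 of 26 Eph and ephrin regions were higher in cerebrum and 7 in cerebellum, and 13 and 9 of 42 regions of semaphorins, plexins and neuropilins. Wnt genes were split 10 against 9 of 29, cadherins 5 against 2 of 22 and GABA receptors 4 against 1 of 9.

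For the identity lists the counts were 3 against 0 of 6 regions in cerebrum genes and 3 against 2 of 10 in cerebellum genes. In pileup, the regions of cerebellum genes were 1 higher in cerebrum and 9 in cerebellum, so fold and pileup of a transcript enriched in a tissue can go opposite ways. Astrocyte markers were split 6 against 2 of 10, oligodendrocyte markers 5 against 3 of 17, microglia markers 1 against 1 of 5 and vascular markers 1 against 1 of 6. By pileup the median of oligodendrocyte and vascular markers was below 0, at -0.41 and -0.23, against 0.11 and 0.02 in fold, and that of Wnt genes moved from -0.09 to 0.01.

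Regions of the same gene were then set against each other, since they share the depth of the library and, isoforms aside, the level of the gene. In 2115 genes with at least 2 shared regions, the log2 pileup of a region minus the mean of the others was tested for 5238 regions. It was higher in cerebrum for 1479 (28.2%) and in cerebellum for 1455 (27.8%), in 1379 genes. In a gene with 2 regions the differences mirror each other by construction. Pileups do not tell isoforms of a gene apart, and they were not divided by input coverage. Uneven coverage along the transcript could differ with tissue or batch, and its part was not tested.

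Where 2 regions of a gene moved apart, the upstream one was higher in cerebrum in the larger number of genes. Of 1442 genes with exactly 2 shared regions 818 were called, and the upstream region was higher in cerebrum in 506 and in cerebellum in 312. Of 363 called genes with a coding and a 3′UTR region, the coding region was higher in cerebrum in 231 and in cerebellum in 132. With both regions at the 3′ end the numbers were 131 and 81. By part, 765 of 2308 coding regions were higher in cerebrum and 541 in cerebellum, and 569 and 812 of 2457 regions of 3′UTRs.

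Zbtb20, a transcriptional repressor with roles in hippocampal and glial development, showed the largest shift. Its upstream 3′UTR region had pileups of 25, 13, 12 and 10 reads in cerebellum and 249, 310, 257 and 280 in cerebrum. The downstream region had 80, 88, 40 and 50 in cerebellum and 57, 76, 53 and 46 in cerebrum. The downstream values of the tissues overlapped, while the upstream values were higher in all 4 cerebrum libraries (4.38 on the log2 scale, SE 0.24, adjusted p = 3.36e-08).

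Ppp2r5e, a subunit of the phosphatase PP2A, changed its order. The coding region had 64, 40, 71 and 54 reads in cerebellum and 151, 212, 114 and 150 in cerebrum, and the 3′UTR region 201, 157, 360 and 205 in cerebellum and 56, 74, 36 and 52 in cerebrum. In cerebellum the 3′UTR region was the higher in every library and in cerebrum the coding region (3.51, SE 0.18, adjusted p = 1.84e-08). Rnf139, a ubiquitin ligase of the endoplasmic reticulum, went the same way, with its coding region at 123, 118, 96 and 81 in cerebellum and 386, 467, 293 and 388 in cerebrum (3.34, SE 0.16).

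Xpr1, a phosphate exporter, had an upstream 3′UTR region at 101, 98, 59 and 63 reads in cerebellum and 436, 579, 366 and 492 in cerebrum, and a downstream region at 76, 68, 72 and 42 in cerebellum and 43, 41, 38 and 37 in cerebrum (3.23, SE 0.22). Igf1r, the receptor of insulin-like growth factor 1, had its last 3′UTR region at 85, 94, 51 and 41 in cerebellum and 38, 69, 38 and 53 in cerebrum, while the region before it had 124, 143, 64 and 70 and then 392, 637, 389 and 523 (-3.37, SE 0.16, for the last region). Only that last region was lower in cerebrum relative to the others of the gene.

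In Ntrk3 the order ran the other way, and it was the most downstream of 3 regions that was favored in cerebrum, with 16, 17, 14 and 22 reads in cerebellum and 372, 506, 373 and 437 in cerebrum (4.11, SE 0.32, adjusted p = 6.52e-07). The region before it had 169, 182, 188 and 80 in cerebellum and 190, 240, 191 and 206 in cerebrum. Adgrb3, an adhesion receptor of synapses, had its most upstream coding region at 21, 28, 48 and 23 in cerebellum and 568, 792, 482 and 639 in cerebrum (3.57, SE 0.22). The 3′UTR region of Vps13d, a lipid transfer protein, was lower in cerebrum against its coding region (-3.21, SE 0.33, and -2.83 without the cerebellum female F1i library).

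**Figure D5:**
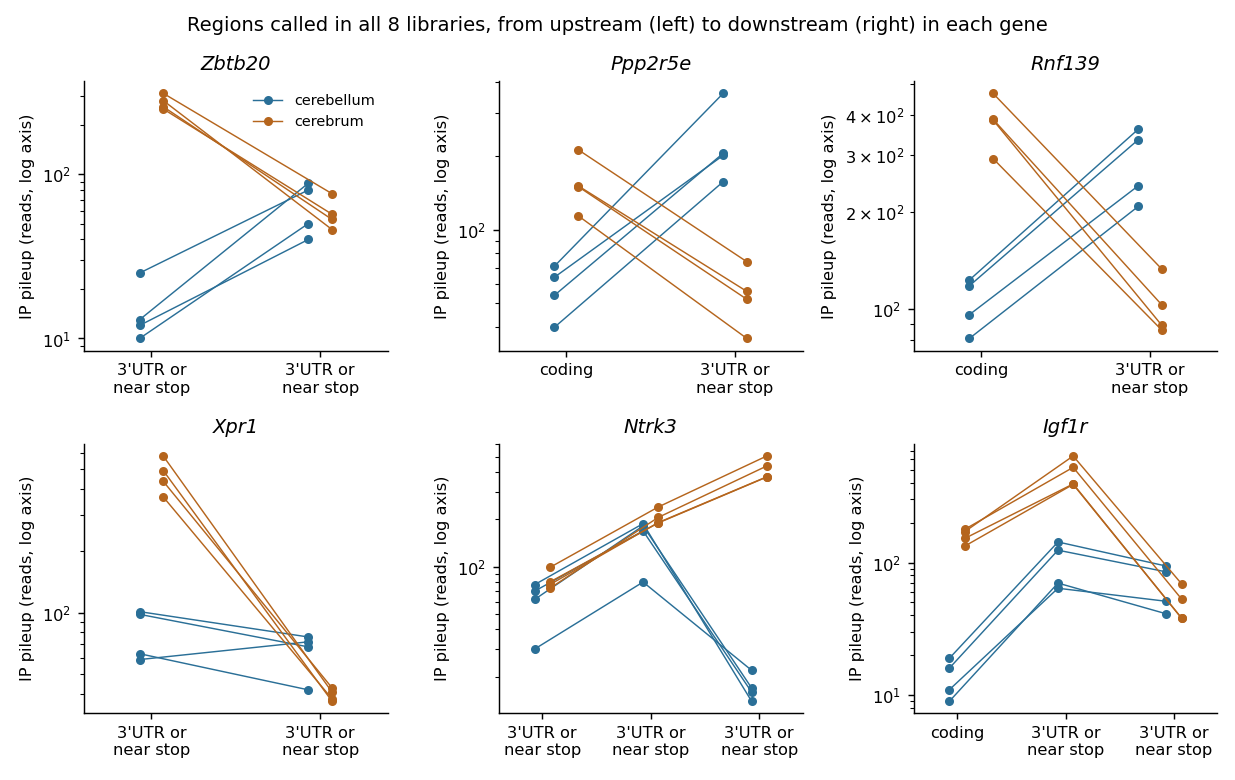
IP pileup at the shared regions of 6 genes on log axes, ordered from upstream (left) to downstream (right), with a line for each cerebellum (blue) and cerebrum (orange) library. The lines of the tissues cross or part within each gene, as in Ppp2r5e, where cerebellum lines go up toward the 3′UTR and cerebrum lines go down.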

How the data were processed

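m6A-seq immunoprecipitates RNA fragments with an antibody against m6A. Here libraries carried barcoded 3′ adapters and were pooled before 2 rounds of IP. Per the labels and the methods, the authors demultiplexed with fastq-multx, trimmed with cutadapt and fastp 0.21.0, aligned with HISAT2 2.1.0 to mm10 with strain variants masked, removed duplicates with gencore, and called peaks per strand and library with MACS2 2.1.2, extending reads by 80 nt. Replicates were not pooled, and the control used for calling is not given in the sources used here. Each deposited peak list gives a fold enrichment over local background (a ratio of IP pileup to expected pileup) and, as deposited, −log10 p and −log10 q values. Fold enrichment is not the share of methylated copies. Input libraries were not used here.

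IP pileups were recovered from fold and −log10 p (tolerance 0.001 in −log10 p). Summits were placed by GENCODE M21 and mm10, in the order stop codon window (200 nt) or 3′UTR, 5′UTR, coding, non-coding exon and intron. Motifs were sought on the peak's strand with their A within 25 nt of the summit. Library values were compared by two-sided exact permutation tests with Benjamini-Hochberg adjustment, and regions with limma 3.58.1 (R 4.3.3; lmFit and eBayes) on log2 fold, centered per library, or log2 pileup against the other regions of the gene, adjusted over all regions tested at a threshold of 0.05. Tables were made with Python 3.11.15, pandas 2.3.3 and NumPy 2.4.6, and the tests were checked on simulated data. Genes were named by these rules: the 7 regions of a tissue with the highest mean list percentile of −log10 q, in genes with 0 peaks in the other tissue and in genes with a shared region, the 6 largest called changes per direction, and members of 16 gene lists. The members, lists and rules were chosen with earlier results of these data known. Leaving out the cerebellum female F1i library, leaving fold uncentered and a block of labelled sex and cross were added after seeing the data. The count of reads per library is unknown, so no counting intervals are given. Some genes that these rules name are not reported here.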

Additional observations from a re-analysis of the deposited data

Results flagged for a closer look

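In 70 groups of 4 libraries, 5 held a library whose gap to the others exceeded Dixon's 95% limit, and chance alone flags about 5% of such groups. The fold enrichment of Ptms in cerebellum was lowest at 6.552 in male F1i, with the other libraries between 6.982 and 6.998. Kcnj4 in cerebellum was highest at 23.76, against 8.679 to 10.17, and Atxn1 at 12.72, against 6.46 to 7.344, both in the female F1i library. Ntrk3 in cerebrum was lowest at 101.8 in female F1i, with the others between 116.5 and 118.7, and in cerebellum highest at 15.36 in female F1r, with the others between 8.447 and 9.157.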

How the results depend on the processing

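Of 223 alternative values 187 kept their direction and side of the threshold (for counts, within 1.5 times); the causes of the changes below were not tested. With lists trimmed to equal sizes, genes per library differed by -180 (exact permutation p = 0.171), peaks per gene by 0.0430 (p = 0.229), 3′UTR share by -1.88 (p = 0.0857), coding share by 0.603 and the share outside genes by -0.0368. With summits in annotated exons, peaks differed by 890 (exact p = 0.0857), peaks per gene by 0.0532 (p = 0.0571), 3′UTR share by -1.06 (p = 0.429) and coding share by 1.29. Coding share differed by 0.175 with −log10 q of at least 5, and any DRACH motif by 0.238. Without both cerebrum F1r libraries, where 0.0667 is the smallest exact p, differences were 1364 peaks, 0.133 peaks per gene, -7.47 for GGAC, -0.776 for 5′UTRs, -2.36 for 3′UTRs, 0.342 for coding and 2.46 for introns. Leaving out 1 library in turn gave 1596 to 2273.5 peaks (exact p up to 0.0571), -3.46 to -2.04 for 3′UTRs (exact p up to 0.0857, without any 1 cerebrum library), 643 to 1052 cerebellum-only regions and 248 to 391 cerebellum-only genes, the highest counts without female F1i (rebuilt from 7 lists). Over shared regions, those with exactly 1 peak per library gave 1763 and 1466 calls toward cerebrum and cerebellum by fold and 786 and 789 within genes, genes with at least 3 regions 678 and 668, and fold without centering 6339 and 520. With the labelled sex and cross as a replicate block, chosen after seeing the data, 2629 and 2267 shared regions were called by fold and 1432 and 1419 within genes, of which 4813 and 2784 in all were also called without it. Deviations of libraries with the same labels correlated at -0.0736 to 0.0521 across regions, so the labels give no pairing, and 4 pairs cannot go below an exact p of 0.125. Regions exist here where a peak was called, and a missing call is no measure of a missing mark.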
